A study of Mus musculus with 2 samples.

Results

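Lipocalin 2 (Lcn2) and 9 genes of iron handling were described cell class by cell class in 2 single-cell RNA libraries of Balb/c mouse brain. The 10 members were chosen by symbol and were Lcn2, Slc22a17, Fth1, Ftl1, Tfrc, Slc40a1, Hmox1, Trf, Slc11a1 and Cp, among 29217 genes with a read in either library, and all 10 were found in both. The libraries are titled positive and control, with 1 library in each group, and both are labelled as triple-negative in molecular typing. The treatment labels run against the titles: the library titled control is labelled as having metastasis of 4T1 cells, a triple-negative breast carcinoma line of mouse, and the one titled positive as having none. The groups are therefore called titled positive and titled control throughout, and no direction with or without metastasis is drawn. How many animals gave each library is not stated in the labels.

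Lipocalin 2 is a secreted protein of neutrophil granules and inflamed epithelia that binds siderophores, the small iron carriers of bacteria, and so withholds iron from them. Iron enters most cells bound to transferrin (Trf) through the transferrin receptor (Tfrc), is stored inside ferritin, a shell of heavy (Fth1) and light (Ftl1) chains, and leaves through ferroportin (Slc40a1), helped by the copper oxidase ceruloplasmin (Cp). Haem oxygenase 1 (Hmox1) frees iron from haem, and Slc11a1 (Nramp1) moves metal out of the phagosomes of macrophages. In brain, oligodendrocytes are known for their high iron and ferritin content, and capillary endothelium takes up iron from blood.

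Several of these messages carry the iron-responsive element, a hairpin bound by iron regulatory proteins when iron is scarce. Bound in a 5′ UTR it blocks translation, and bound in a 3′ UTR it protects the message from decay, so levels of RNA and protein of these members need not move together. The UTRs of the 10 members in GENCODE M21 transcripts (GRCm38) were searched for a C, 5 bases, the loop CAGTGN and 5 bases that pair with the first 5, with G-T pairs allowed. The elements found are shown because they sort the members into those with a 5′ element, with 3′ elements and with none, and capitals mark the loop:
Fth1 5′ UTR, chr19:9982738-9982754, plus strand: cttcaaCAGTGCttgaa
Ftl1 5′ UTR, chr7:45459785-45459801, minus strand: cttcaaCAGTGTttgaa
Slc40a1 5′ UTR, chr1:45925471-45925487, minus strand: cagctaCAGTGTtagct
Tfrc 3′ UTR, chr16:32631225-32631241, plus strand: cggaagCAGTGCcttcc
Tfrc 3′ UTR, chr16:32631604-32631620, plus strand: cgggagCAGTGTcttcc
Tfrc 3′ UTR, chr16:32631669-32631685, plus strand: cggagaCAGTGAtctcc
Tfrc 3′ UTR, chr16:32631716-32631732, plus strand: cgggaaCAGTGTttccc

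The element was in 4 of 5 Fth1 transcripts with a 5′ UTR, in 1 of 2 for Ftl1 and in 1 of 4 for Slc40a1, and all 4 Tfrc elements were in 1 of 2 transcripts with a 3′ UTR. By the same pattern, 31 of 20916 genes (0.148%) held it in a 5′ UTR and 129 of 21707 genes (0.594%) in a 3′ UTR. No match was found in Lcn2, Slc22a17, Hmox1, Trf, Slc11a1 or Cp, which says only that these letters are not in those UTRs. RefSeq promoter windows on GRCm38, from 250 bases before to 50 after a start, were at hand for 7 members in 10 windows. None of the 10 held TGACNNNGC, the core of the antioxidant response element, or the NF-kB type motif on either strand, against 12.4% and 4.79% of 32851 windows. CAGTGN on the sense strand after the start was likewise in 0 of 10 member windows, against 7.08% of all. The windows end 50 bases after a start, and none was at hand for Slc40a1. Elements further into a transcript, such as those of Tfrc, could not be found in them.

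The titled positive library held 98141261 UMIs (unique molecular identifiers, 1 per captured molecule) in 10842 barcodes, with a median of 7383.5 per barcode, and the titled control library held 55657687 UMIs in 10417 barcodes, with a median of 4230. After filters and removal of called doublets, 10537 titled positive and 9806 titled control cells were kept, and 149 barcode sequences occurred in both libraries. Cells were clustered without the 10 members and without the lists of other iron genes, and clusters were named "like" a cell type from marker genes. The classes differed in size: carcinoma cell-like cells numbered 5888 in the titled positive library and 1 in the titled control library, neutrophil-like cells 209 (titled positive) and 10 (titled control), and monocyte or macrophage-like cells 2227 (titled positive) and 310 (titled control). In the other direction, microglia-like cells numbered 107 (titled positive) and 2271 (titled control), astrocyte-like cells 21 (titled positive) and 1913 (titled control), and oligodendrocyte-like cells 840 (titled positive) and 3570 (titled control). Levels are given as CPM, the UMIs of a gene scaled to the total of its class in the usual way, with exact Poisson 95% intervals that cover counting error only. CPM is not scaled by gene length, so levels are compared between classes and never between genes.

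With 1 library in each group, no difference between titles has a replicate check and none was tested. A ratio is called past 2-fold where the log2 ratio of titled positive over titled control CPM exceeds 1 in size, and ratios were formed in the 7 classes with at least 50 cells in each library, for genes whose UMIs in the 2 libraries came to 50 or more. The same class often came from different clusters: the titled positive oligodendrocyte-like cells were nearly all of cluster 3 (837 cells), while those of the titled control library were of clusters 24, 25 and 26 and a few of 21. Titled positive microglia-like cells were sub-cluster 10e, led by Cst7, Ccl12, Ccl8, Ccl5 and Saa3, and titled control ones cluster 29, led by P2ry12 and Cx3cr1. The mean log2 marker ratio of 10e was 2.02 for microglia and 1.44 for monocyte or macrophage, against 5.37 for microglia in cluster 29. The summed microglia markers were at 6110 CPM in 10e and 38102 CPM in the titled control microglia-like cells. Sub-clusters 10a to 10d matched more than 1 class. Monocyte or macrophage-like cells were mainly clusters 6 and 8 in the titled positive library and cluster 27 (302 cells) in the titled control library. Endothelial-like cells were sub-cluster 14a against 14c, 14d, 14e, 14g and 14h. The part of these differences in cell state in the ratios below was not tested.

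Markers of carcinoma cells and of neutrophils were found across the titled positive library, in every class. Summed over 11 carcinoma markers they came to 714.2 to 1125 CPM in the 7 compared classes of the titled positive library, against 1.47 to 149 CPM in those of the titled control library. All 11 had UMIs in each of those titled positive classes except the dendritic cell-like cells, where Cldn7 was at 0, and 5 to 10 of the 11 were at 0 in their titled control counterparts. Summed over 10 neutrophil markers the classes stood at 502.6 to 7627 CPM in the titled positive library and 21.07 to 299.4 CPM in the titled control library. Cells without a UMI of either list were few in the titled positive library: 10 of 840 oligodendrocyte-like cells and 2 of 2227 monocyte or macrophage-like cells, and none of the cells of the other 5 compared classes. In the titled control library such cells made up 42.5% (microglia-like) to 84.5% (endothelial-like) of a class. A level in a class of the titled positive library is therefore read beside these markers, since free RNA of 1 source keeps its genes in 1 ratio in every class.

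Across the 7 classes, Lcn2 was higher in the titled positive library in all 7, and Slc40a1 was lower in the 4 in which it could be compared, though free RNA subtraction turned the direction of Lcn2 in T and dendritic cell-like cells and of Slc40a1 in oligodendrocyte-like cells, with the values given below. Past 2-fold, 3 of 10 members were higher (Lcn2, Hmox1, Cp) and 1 was lower (Slc40a1) in oligodendrocyte-like cells, where 11.6% and 15.9% of all 11717 genes compared were higher and lower. In endothelial-like cells 3 of 9 members were higher (Lcn2, Fth1, Cp), against 5.45% of all genes, and 4 were lower (Slc22a17, Tfrc, Slc40a1, Trf), against 13.3%. Fibroblast-like cells had 2 of 7 higher (Lcn2, Hmox1) and 2 lower (Slc22a17, Trf), where 14.4% and 17.3% of all genes were past 2-fold. The fibroblast-like ratio of Trf was -0.95 over clusters 19 and 20, those that both libraries shared.

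In microglia-like cells 4 of 10 members were higher (Lcn2, Fth1, Hmox1, Cp), against 7.19% of all genes, and 2 were lower (Slc40a1, Trf), against 28.3%. Among monocyte or macrophage-like cells 1 of 10 members was higher (Lcn2) and 4 were lower (Slc22a17, Tfrc, Slc40a1, Cp), with 9.41% and 16% of all genes past 2-fold. Dendritic cell-like cells had 1 of 4 higher (Lcn2) and 1 lower (Trf), with a background of 14.3% and 6.39%. T cell-like cells had 2 of 6 higher (Lcn2, Cp) and 0 lower, with a background of 9.58% and 6.58%. The median log2 ratio was itself shifted in several classes. Over genes with enough UMIs in both libraries, it was 0.28 in microglia-like, -0.25 in monocyte or macrophage-like and -0.18 in oligodendrocyte-like cells. It was smaller in size in the other classes. Over all genes compared, it was -0.43 in microglia-like, -0.24 in monocyte or macrophage-like, -0.23 in oligodendrocyte-like and -0.21 in endothelial-like cells. In dendritic cell-like cells it was 0.22, in fibroblast-like cells -0.12 and in T cell-like cells 0.03. The sign in microglia-like cells thus depended on the genes taken. Of the 30 ratios past 2-fold, 25 kept their direction in every processing alternative and 17 also stayed past 2-fold.

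**Figure D1:**
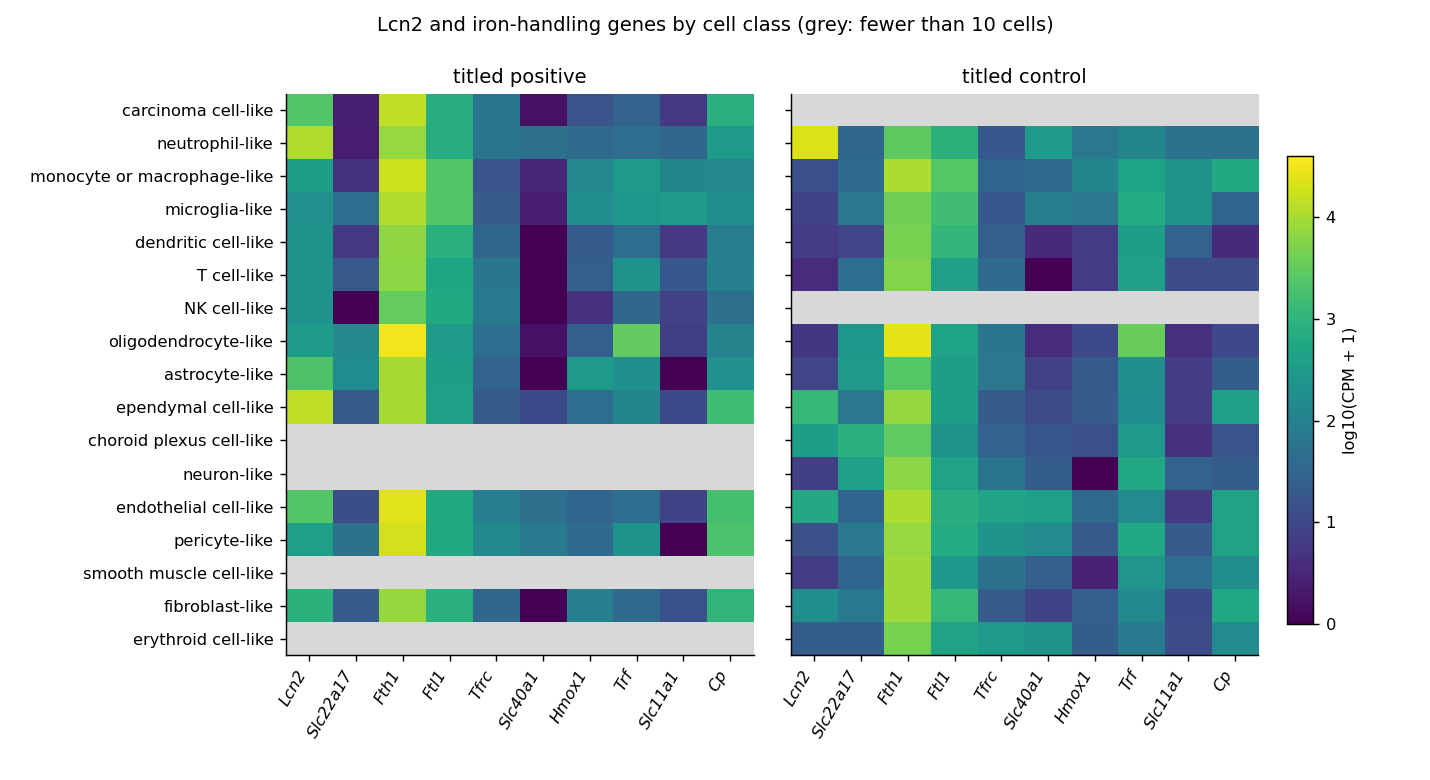
Level of each of the 10 genes (columns) in each cell class (rows), as log10(CPM + 1), in the titled positive library (left) and the titled control library (right), with grey for classes of fewer than 10 cells. Fth1 is bright in every class, Trf in oligodendrocyte-like cells of both libraries, and Lcn2 reaches 14488 CPM in ependymal-like cells of the titled positive library.

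**Figure D2:**
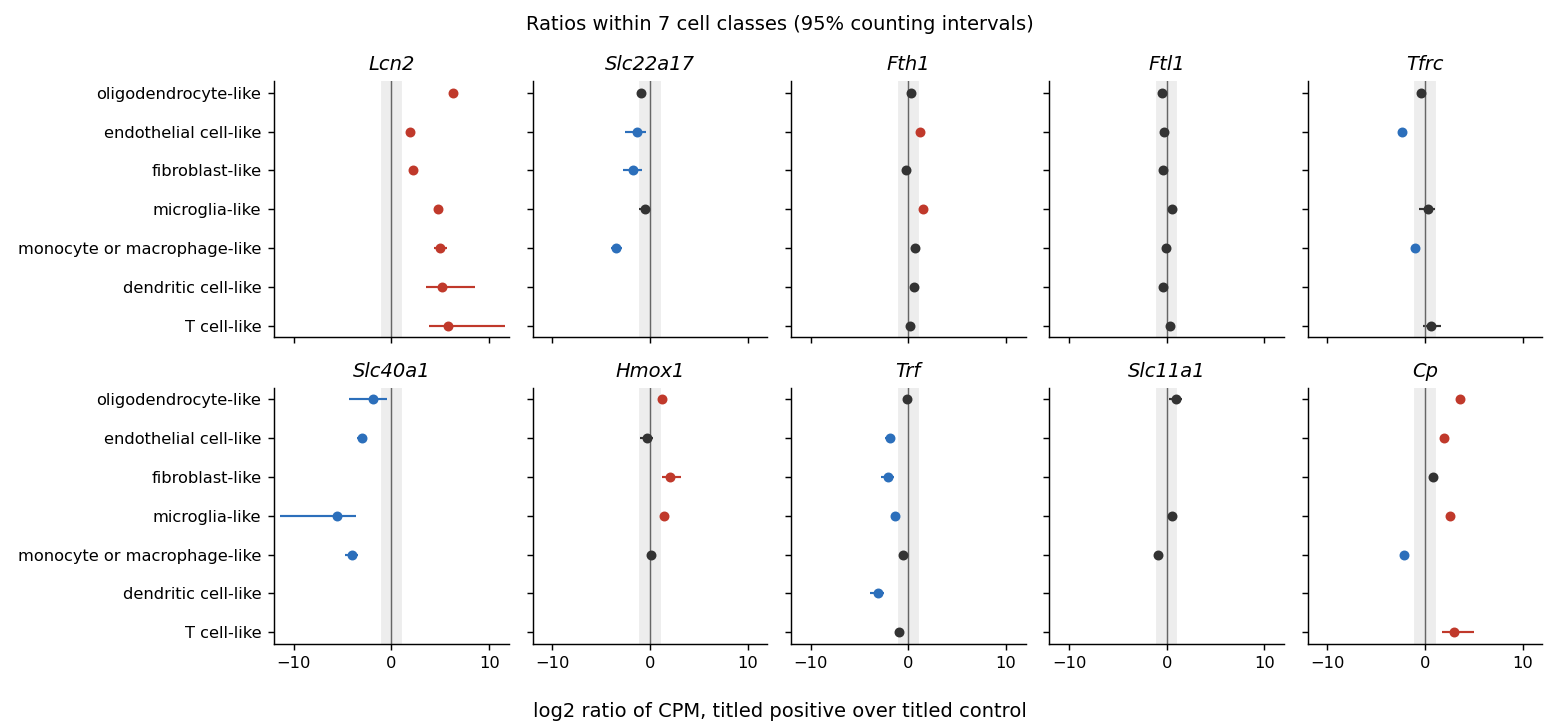
Log2 ratio of CPM, titled positive over titled control, for each gene (panels) in 7 cell classes (rows), with points for ratios, bars for 95% counting intervals and a grey band for less than 2-fold. Lcn2 lies to the right of the band in all 7 classes, from 1.94 in endothelial-like to 6.33 in oligodendrocyte-like cells, and Slc40a1 to the left, down to -5.55 in microglia-like cells.

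Lcn2 (ENSMUSG00000026822, chr2:32384633-32388252 on GRCm38, minus strand) differed widely in level between cell classes in both libraries. Among classes of at least 10 cells in the titled positive library the order began with ependymal-like cells, the ciliated lining of the ventricles, at 14488 CPM (13972 to 15018, 38 cells), and neutrophil-like cells at 11450 CPM (11287 to 11614, 209 cells). Carcinoma cell-like cells followed at 2366 CPM (2355 to 2378), endothelial-like cells at 2317 CPM (2210 to 2427, 96 cells) and astrocyte-like cells at 2054 CPM (1791 to 2345, 21 cells), and neither neighbouring pair of these 3 was apart beyond its intervals. The astrocyte-like level rested on few cells, which its counting interval does not cover. After thinning of all cells to equal depth, 47.6% of the 21 astrocyte-like cells had no Lcn2 UMI, and 3 cells held 81.8% of the UMIs. Fibroblast-like cells held 888.3 CPM. Pericyte-like cells (387.8 CPM, 13 cells), monocyte or macrophage-like cells (377.5 CPM) and oligodendrocyte-like cells (345.6 CPM) came next, the first overlapping both others. Dendritic (239.1 CPM), NK (228.4 CPM), T (226.4 CPM) and microglia-like cells (208 CPM) ended the order with overlapping intervals.

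In the titled control library the same classes led. The 10 neutrophil-like cells held 22887 CPM (21669 to 24156), ependymal-like cells 1178 CPM (1113 to 1245, 160 cells), endothelial-like cells 605.2 CPM (576 to 635, 497 cells), choroid plexus cell-like cells 358.9 CPM (38 cells) and fibroblast-like cells 197.3 CPM. Every other named class with at least 10 cells lay at or under 22.18 CPM. The 10 neutrophil-like cells were 0.102% of the kept cells of that library and held 27.4% of its Lcn2 UMIs, beside 34.3% in endothelial-like and 25.8% in ependymal-like cells. In the titled positive library 81.3% of Lcn2 UMIs were in carcinoma cell-like and 9.97% in neutrophil-like cells.

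**Figure D3:**
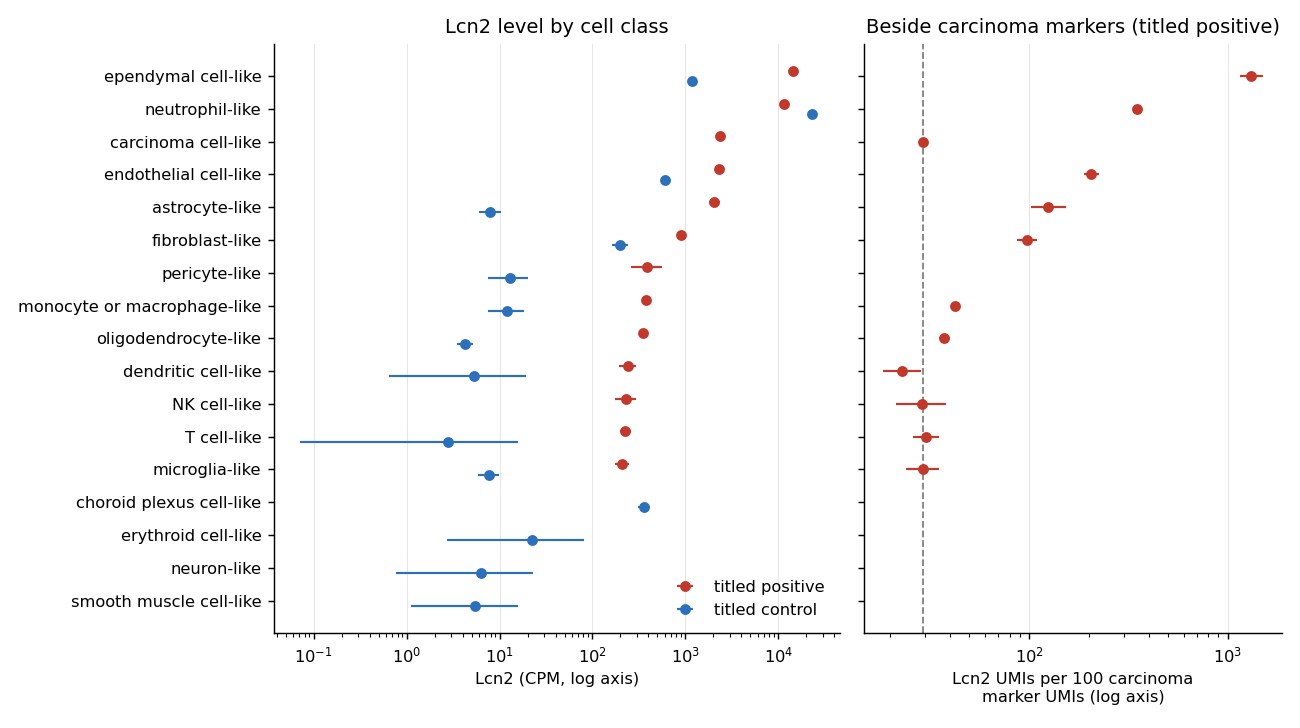
Left, Lcn2 in CPM on a log axis for each class, titled positive (red) and titled control (blue), with 95% counting intervals. Right, Lcn2 UMIs per 100 UMIs of the carcinoma markers in the titled positive library, with a dashed line at the 29.4 of carcinoma cell-like cells; T, NK, microglia and dendritic cell-like cells lie on or near the line, and ependymal-like cells at 1317.

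Set against the carcinoma markers, Lcn2 stood at much the same ratio in several titled positive classes and far above it in others. Carcinoma cell-like cells had 29.4 Lcn2 UMIs per 100 carcinoma marker UMIs (29.3 to 29.6). T cell-like cells had 30.2 (25.9 to 35.2), microglia-like cells 29.1 (24 to 35.1), NK cell-like cells 28.8 (21.5 to 38.1) and dendritic cell-like cells 22.9 (18.3 to 28.5), near the carcinoma cell-like ratio, which the intervals of all but the dendritic cell-like cells held. Oligodendrocyte-like cells were higher at 37.5 (35.4 to 39.8) and monocyte or macrophage-like cells at 42.3 (40.9 to 43.7). Neutrophil marker sums were 691.3 CPM in these oligodendrocyte-like and 2013 CPM in these monocyte or macrophage-like cells. Lcn2 per 100 neutrophil marker UMIs was 50 in the former, 18.8 in the latter and 6.35 in neutrophil-like cells. The joint part of carcinoma and neutrophil RNA in these higher ratios was not tested. Fibroblast-like cells at 98.2, astrocyte-like cells at 125, endothelial-like cells at 206 (190 to 224), neutrophil-like cells at 348 and ependymal-like cells at 1317 (1150 to 1515) were well above the carcinoma cell-like ratio.

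The share of cells with an Lcn2 UMI was read against T cell-like cells, which are not known to make it. After each cell was thinned to 2000 UMIs, 32.5% (25.5 to 40.2) of titled positive T cell-like cells had an Lcn2 UMI, against 1.14% of titled control ones; the median depths before thinning were 4691 UMIs (titled positive) and 3121 UMIs (titled control), and the unthinned shares 63.3% (titled positive) and 1.14% (titled control). The thinned share was 31.8% in microglia-like and 32.5% in dendritic cell-like cells of the titled positive library, at the T cell-like background, and 37.6% in oligodendrocyte-like and 34.7% in fibroblast-like cells, within its interval. Just above it, at 42.1%, were monocyte or macrophage-like cells. Ependymal-like cells (84.2%, median depth 5115), endothelial-like cells (86.5%, median depth 6251) and neutrophil-like cells (95.7%, median depth 6364) stood far above. In the titled control library 19.4% of ependymal-like, 13.3% of endothelial-like and 4.17% of fibroblast-like cells had an Lcn2 UMI.

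The titled positive library had more Lcn2 than the titled control library in each class compared. In oligodendrocyte-like cells, 345.6 CPM in the titled positive library stood against 4.288 CPM in the titled control library, a log2 ratio of 6.33 (6.05 to 6.63). The ratio was 5.76 (3.84 to 11.65) in T cell-like cells, on 221 UMIs (titled positive) and 1 UMI (titled control), and 5.17 (3.59 to 8.55) in dendritic cell-like cells, on 101 UMIs (titled positive) and 2 UMIs (titled control). Lcn2 was at 377.5 CPM (titled positive) and 12.08 CPM (titled control) in monocyte or macrophage-like cells (4.93; 4.37 to 5.64) and at 208 CPM (titled positive) and 7.61 CPM (titled control) in microglia-like cells (4.77; 4.33 to 5.23). With estimated free RNA of each library subtracted, the T cell-like and dendritic cell-like ratios changed sign, to -1.39 and -0.42, the microglia-like ratio was 0.48, and that of monocyte or macrophage-like cells was 3.72.

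The ependymal-like cells were cluster 1 in both libraries, with all 10 markers of the type detected. In the titled positive library 15.8% of the 38 cells had no Lcn2 UMI after thinning, the median cell had 24 per 2000 UMIs and the highest 95. In the titled control library 80.6% of the cells had none, and the 16 cells with the most held 93% of the class's Lcn2 UMIs. Lcn2 was thus spread over most titled positive ependymal-like cells and concentrated in few titled control ones. Carcinoma marker sums were 1100 CPM (titled positive) and 240.8 CPM (titled control) in these cells and neutrophil marker sums 632.6 CPM (titled positive) and 32.24 CPM (titled control). Without barcodes found in both libraries, the titled positive level was 15621 CPM over 36 cells.

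Neutrophil-like cells, whose granules are the textbook store of lipocalin 2, had a median of 24 Lcn2 UMIs per 2000 in the titled positive library, and 4.31% of them had none. They had 6.35 Lcn2 UMIs per 100 UMIs of the 10 neutrophil markers, against 473 in carcinoma cell-like cells. Carcinoma cell-like cells were far more uneven: the median cell had 1 Lcn2 UMI per 2000, the upper quartile 4 and the highest cell 152, and 42.6% had none. The 589 cells with the most held 63.5% of the class's Lcn2 UMIs.

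The unevenness followed the 4 carcinoma cell-like clusters, which were made without Lcn2 but with Ltf, the gene of the iron-binding protein lactoferrin, which was among the leading genes of clusters 5 and 0. Lcn2 was at 7265 CPM in cluster 5 (1583 cells), 6480 CPM in cluster 0 (162 cells), 613.9 CPM in cluster 2 (1825 cells) and 557.7 CPM in cluster 4 (2318 cells). Cp had the same order at the top, with 2045, 1446, 358.9 and 493.3 CPM. Fth1 had 19678, 16166, 11336 and 13864 CPM. Tfrc went the other way, with 49.4, 52.63, 62.1 and 65.54 CPM. Cycling cells, those with at least 3 UMIs over 8 cell cycle genes, made up 7.26% of cluster 5, 79% of cluster 0, 85.7% of cluster 2 and 12.1% of cluster 4, so that 1 cycling and 1 mostly non-cycling cluster lay on each side. Over the whole class, Lcn2 was at 1133 CPM in the 2088 cycling cells and 3245 CPM in the other 3800 cells, Cp at 470.1 CPM in cycling and 1110 CPM in other cells, Fth1 at 11787 CPM in cycling and 16256 CPM in other cells, and Tfrc at 63.72 CPM in cycling and 57.4 CPM in other cells.

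**Figure D4:**
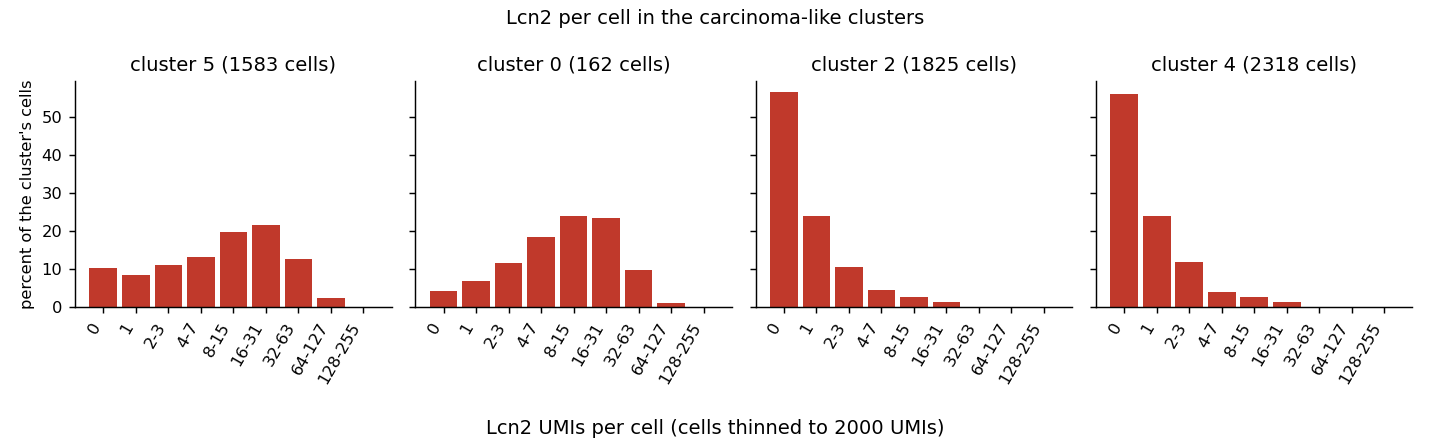
Share of cells (percent, y axis) by Lcn2 UMIs per cell after thinning to 2000 UMIs (x axis, classes that widen to the right) in each of the 4 carcinoma cell-like clusters of the titled positive library. Clusters 2 and 4 peak at 0, and clusters 5 and 0 are spread toward higher counts.

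Endothelial-like cells line the brain's vessels. Lcn2 was at 2317 CPM in the titled positive library and 605.2 CPM in the titled control library, a log2 ratio of 1.94 (1.84 to 2.03). The titled control level came from 1 sub-cluster: 14d (117 cells), which like the titled positive sub-cluster 14a had Vwf and Ackr1, genes of venular endothelium, among its leading genes, held 1343 CPM. The other 4 titled control sub-clusters held 25.56 CPM (14c, 219 cells), 0 UMIs (14e, 113 cells), 46.63 CPM (14g, 36 cells) and 281.8 CPM (14h, 10 cells). Against sub-cluster 14d only, the ratio of Lcn2 was 0.79, under 2-fold. Neutrophil markers stood at 7627 CPM in the titled positive and 36.7 CPM in the titled control endothelial-like cells. Of the 96 titled positive cells, 5 with over 100 neutrophil marker UMIs held 5477 of the 5843 such UMIs and 476 of the 1775 Lcn2 UMIs, and without them Lcn2 was at 1929 CPM and the ratio was 1.67.

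**Figure D5:**
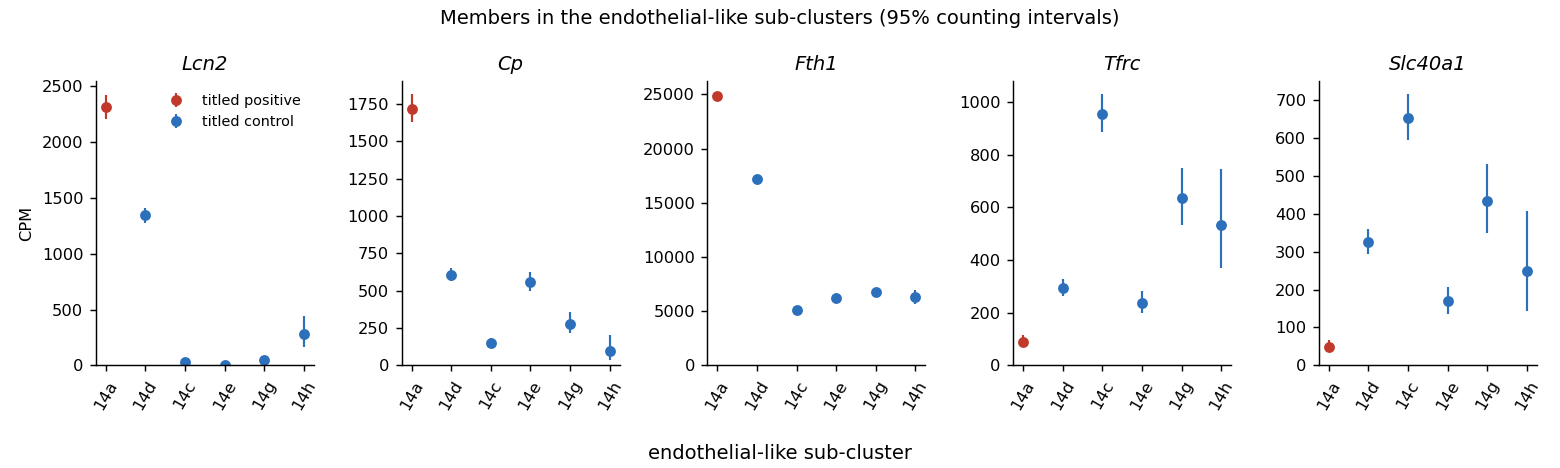
CPM (y axis, from 0) of members in the endothelial-like sub-clusters (x axis), with the titled positive sub-cluster 14a in red at the left and the titled control sub-clusters in blue, and 95% counting intervals. Lcn2, Cp and Fth1 are highest in 14a and next in 14d (1343, 607.3 and 17155 CPM), while Tfrc and Slc40a1 peak in 14c.

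In fibroblast-like cells Lcn2 was at 888.3 CPM in the titled positive library and 197.3 CPM in the titled control library (2.16; 1.87 to 2.49). Cluster 16 (44 cells), led by Col3a1 and Col1a2 and found in the titled positive library only, held 177.4 CPM. The clusters that both libraries shared were further apart. In cluster 19, Lcn2 was at 2770 CPM in 14 titled positive cells (2461 to 3106, 292 UMIs). The 21 titled control cells of cluster 19 had 11.81 CPM, which rested on 1 UMI (0.2989 to 65.78). In cluster 20, Lcn2 was at 2197 CPM in 14 titled positive cells and 233.3 CPM in 75 titled control cells. Over clusters 19 and 20 alone the ratio was 3.66.

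Slc22a17 (chr14:54906304-54913132, minus strand) encodes a transporter-like protein reported as a cell surface receptor of lipocalin 2. Among classes of at least 10 cells it was highest in choroid plexus cell-like (813.8 CPM), neuron-like (424.4 CPM) and astrocyte-like cells (316.9 CPM) of the titled control library, and oligodendrocyte-like cells held 60.7% of its UMIs in the titled positive library, against 62% in the titled control library. Carcinoma cell-like cells had 1.504 CPM and titled positive neutrophil-like cells 1.212 CPM, 2 UMIs. In oligodendrocyte-like cells its level was 146.3 CPM in the titled positive and 275.8 CPM in the titled control library (-0.91; -1.03 to -0.80), short of 2-fold. It was lower past 2-fold in monocyte or macrophage-like cells, at 3.679 CPM (titled positive) and 39.53 CPM (titled control) (-3.42; -3.97 to -2.89), in fibroblast-like cells (-1.71; -2.74 to -0.82) and in endothelial-like cells (-1.32; -2.57 to -0.40), the last at -0.58 with estimated free RNA subtracted. Beside those ratios, the summed oligodendrocyte markers were at 523.7, 552.7 and 536.5 CPM in these 3 classes of the titled positive library and at 6547, 3839 and 3651 CPM in those of the titled control library; their part in the ratios was not tested.

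Fth1 (chr19:9980598-9985098, plus strand), the ferritin heavy chain with the iron-oxidising centre, had a UMI in nearly every cell of every class. Oligodendrocyte-like cells led both libraries, at 31611 CPM (31446 to 31776) in the titled positive and 25936 CPM (25871 to 26000) in the titled control library, a log2 ratio of 0.29. Within the titled control cells it ranged from 20402 CPM in cluster 26, led by Opalin and Ptgds, to 32355 CPM in cluster 24, led by Klk6 and S100b, so that the titled positive cluster 3, at 31616 CPM, lay within the titled control range.

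Fth1 was higher past 2-fold in microglia-like cells, at 11323 CPM in the titled positive and 3990 CPM in the titled control library (1.51; 1.47 to 1.54), and in endothelial-like cells, at 24872 CPM (titled positive) and 10751 CPM (titled control) (1.21; 1.18 to 1.24). The endothelial ratio was 0.54 against sub-cluster 14d only, whose 17155 CPM stood above the 5076 to 6799 CPM of the other titled control sub-clusters. With clustering at resolution 2 the microglia-like ratio was 0.99. The titled positive sub-clusters 10a to 10d, which matched more than 1 class, held 6929 to 11457 CPM. Monocyte or macrophage-like cells were at 17917 CPM (titled positive) and 10949 CPM (titled control) (0.71), with the titled positive clusters between 12170 and 24173 CPM and titled control cluster 27 at 9675 CPM. Carcinoma cell-like cells held 14397 CPM. Fibroblast-like cells had 7467 CPM in the titled positive and 8969 CPM in the titled control library (-0.26), and the direction turned over clusters 19 and 20 alone (0.47), both of which were higher in the titled positive library. Cluster 16, of that library only, was at 5283 CPM.

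Ftl1 (chr7:45457944-45459884, minus strand), the light chain that helps iron cores form, had another order. The monocyte or macrophage-like cells led, at 2361 CPM in the titled positive and 2409 CPM in the titled control library, a ratio of -0.03 (-0.07 to 0.02). Microglia-like cells had 2335 CPM (titled positive) and 1563 CPM (titled control) (0.58; 0.50 to 0.65; -0.13 with cells named singly from their own markers), and oligodendrocyte-like cells, which led for the heavy chain, had 336.9 CPM (titled positive) and 472.5 CPM (titled control) (-0.49; -0.57 to -0.41). No Ftl1 ratio was past 2-fold in any of the 7 classes. The near-identical pseudogene Ftl1-ps1 held 2.98% as many UMIs as Ftl1 in the titled positive library, against 5.58% in the titled control library, and Gm22133 and Gm10252 overlap Ftl1, so its counts are uncertain to that extent.

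Tfrc (chr16:32608920-32632794, plus strand), the receptor that brings transferrin-bound iron into cells, was highest in vessels and erythroid-like cells of the titled control library. Titled control endothelial-like cells had 486.3 CPM (460 to 513), erythroid-like cells 310.5 CPM (16 cells) and pericyte-like cells 239.4 CPM, these last beside an erythroid marker sum of 1909 CPM. The erythroid-like cells were a sub-cluster of the endothelial cluster in which all 10 endothelial markers were detected, with Emcn, Plvap and Sox18 among its leading genes, so their Tfrc and Slc40a1 levels stand beside endothelial markers, whose part was not tested. All 10 endothelial markers were also detected in the pericyte-like cluster 17. Its leading genes included Gkn3, as did those of endothelial sub-cluster 14e. The part of endothelial RNA in the pericyte-like levels of Tfrc, Slc40a1 and Cp was not tested. Endothelial-like cells of the titled positive library had 90.06 CPM (70.1 to 114), a log2 ratio of -2.42 (-2.80 to -2.08). Among the titled control sub-clusters, Tfrc was at 955.6 CPM in 14c, led by Car4, a gene of capillary endothelium, 634.2 CPM in 14g, 532.3 CPM in 14h, 294 CPM in 14d and 237.6 CPM in 14e. Against 14d only, the ratio was -1.70, so that Tfrc, unlike Lcn2 and Fth1, stayed past 2-fold in that setting.

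In monocyte or macrophage-like cells Tfrc was at 14.43 CPM in the titled positive and 29.1 CPM in the titled control library (-1.02; -1.46 to -0.55), just past 2-fold, and -0.41 with cells named singly from their own markers. It was within 2-fold in oligodendrocyte-like (45.94 CPM titled positive, 62.63 CPM titled control), microglia-like (20.08 CPM titled positive, 17.06 CPM titled control) and T cell-like cells (62.49 CPM titled positive, 39.19 CPM titled control). Carcinoma cell-like cells had 60.03 CPM, against 50.95 CPM over all kept cells of the titled positive library. They were 55.9% of those cells, with a median depth of 10234.5 UMIs, and held 81.4% of the Tfrc UMIs.

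Trf (chr9:103204001-103230444, minus strand), transferrin itself, was an oligodendrocyte gene in both libraries, at 3188 CPM (3136 to 3241) in the titled positive and 3411 CPM (3388 to 3434) in the titled control library, a ratio of -0.10. Oligodendrocyte-like cells held 64.3% of its titled positive UMIs and 87.5% of its titled control UMIs. Outside them it was lower in the titled positive library by 2-fold or more in dendritic cell-like (42.62 CPM titled positive, 379.1 CPM titled control; -3.12), fibroblast-like (36.45 CPM titled positive, 157.1 CPM titled control; -2.09), endothelial-like (45.68 CPM titled positive, 163.7 CPM titled control; -1.82) and microglia-like cells (271.1 CPM titled positive, 674.5 CPM titled control; -1.31). The oligodendrocyte markers moved with it: their sums in these 4 classes were 622.7, 552.7, 536.5 and 550.7 CPM in the titled positive and 4296, 3839, 3651 and 5069 CPM in the titled control library. Their part in these ratios was not tested beyond the values that follow.

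Per 100 oligodendrocyte marker UMIs, oligodendrocyte-like cells had 6.08 Trf UMIs in the titled positive library, against 3.04 in the titled control library. Titled positive fibroblast-like (6.59; 4.17 to 9.97), dendritic cell-like (6.84; 3.99 to 11) and T cell-like cells (5.97; 5.17 to 6.85) lay at that library's ratio. Titled positive endothelial-like cells stood at 8.52, with an interval that held the ratio (5.85 to 12). In the titled control library T cell-like cells (3.16; 2.68 to 3.71) lay at its ratio. Fibroblast-like (4.09; 3.24 to 5.1), endothelial-like (4.48, 4.07 to 4.93) and dendritic cell-like cells (8.83; 7.38 to 10.5) were above it. Microglia-like cells were above it in both libraries, at 49.2 (41.1 to 58.7) in titled positive and 13.3 (12.9 to 13.7) in titled control cells, and so were monocyte or macrophage-like cells, at 60.6 (58.4 to 63) in titled positive and 7.09 (6.61 to 7.61) in titled control cells. In T cell-like cells Trf was at 218.2 CPM in the titled positive and 431.1 CPM in the titled control library, and the titled positive sub-cluster 11f (11 cells), with the oligodendrocyte gene Klk6 among its leading genes, held 1759 CPM. Trf overlaps Gm20425 on the same strand, so its counts could include that gene's reads.

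Slc40a1 (chr1:45908068-45926523, minus strand), ferroportin, the only known iron exporter of mammalian cells, was found mostly outside the carcinoma cell-like cells. Titled control endothelial-like cells had 386.4 CPM (364 to 411), the 10 neutrophil-like cells 329.4 CPM, erythroid-like cells 232.9 CPM, pericyte-like cells 164.6 CPM and microglia-like cells 101 CPM (94.2 to 108). Carcinoma cell-like cells had 0.6138 CPM (0.438 to 0.836), 40 UMIs in 5888 cells. In the titled positive library 37.2% of the 215 Slc40a1 UMIs were in neutrophil-like cells, which held 48.46 CPM.

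The level was lower in the titled positive library in all 4 classes compared. Microglia-like cells had 1.434 CPM in the titled positive and 101 CPM in the titled control library, on 1 UMI (titled positive) and 823 UMIs (titled control), a log2 ratio of -5.55 (-11.44 to -3.66). The ratio was -4.03 (-4.72 to -3.40) in monocyte or macrophage-like cells, at 2.164 CPM (titled positive) and 35.69 CPM (titled control), with no titled positive cluster above 3.089 CPM. Endothelial-like cells stood at 48.29 CPM (titled positive) and 386.4 CPM (titled control) (-2.98; -3.51 to -2.53), and each of the 5 titled control sub-clusters with 10 or more cells, from 169.4 CPM in 14e to 654.6 CPM in 14c, was above the titled positive one. Oligodendrocyte-like cells had 3 UMIs in the titled positive library, against 68 in the titled control library (-1.86; -4.38 to -0.46), and with free RNA of 5% subtracted that ratio turned to 0.96. No Slc40a1 UMI was found in 169 titled positive or 88 titled control T cell-like cells, which by the floor of 3 counts allows up to 3.07 CPM (titled positive) and 8.4 CPM (titled control).

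Ferroportin was low in all titled positive cells that clustered with the microglia-like ones. The whole of cluster 10 in that library, 653 cells of which most matched more than 1 class, had 4.381 CPM of Slc40a1. In the same cluster Fth1 was at 8625 CPM, Hmox1 at 90.37 CPM and Slc11a1 at 259.3 CPM.

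Cp (chr3:19957054-20009145, plus strand), the copper oxidase that loads exported iron onto transferrin, was higher in some classes and lower in another, a difference between classes that was not tested. It was higher in the titled positive library in oligodendrocyte-like (112.6 CPM titled positive, 9.195 CPM titled control; 3.61, 3.38 to 3.85), T cell-like (98.35 CPM titled positive, 11.2 CPM titled control; 2.97), microglia-like (186.4 CPM titled positive, 30.93 CPM titled control; 2.59, 2.27 to 2.90) and endothelial-like cells (1720 CPM titled positive, 440 CPM titled control; 1.97, 1.85 to 2.08). In monocyte or macrophage-like cells it was lower, at 137.8 CPM in the titled positive and 627.6 CPM in the titled control library (-2.19; -2.29 to -2.08). Titled control cluster 27 held 644.8 CPM, and the titled positive clusters 83.96 to 158.8 CPM. With cells named singly from their own markers instead of by cluster, that ratio was 0.66, and the microglia-like ratio was 0.68 at clustering resolution 2, short of 2-fold.

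Cp, too, was abundant in carcinoma cell-like cells, which at 844 CPM held 87.7% of its UMIs in the titled positive library and 10.5 Cp UMIs per 100 carcinoma marker UMIs. Dendritic cell-like cells had 7.94 per 100, oligodendrocyte-like cells 12.2, T cell-like cells 13.1 and monocyte or macrophage-like cells 15.4. Microglia-like cells had 26.1, fibroblast-like cells 115, ependymal-like cells 132 and endothelial-like cells 153. With estimated free RNA subtracted, the oligodendrocyte-like ratio of Cp was 1.14.

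Ependymal-like cells, at one of the higher ratios, had 1455 CPM of Cp in the titled positive and 415.3 CPM in the titled control library. Pericyte-like cells, for which no such ratio was formed, had 1952 CPM (titled positive, 13 cells) and 442.6 CPM (titled control). Endothelial sub-cluster 14a had 1720 CPM, against 607.3 CPM in 14d, 556.2 CPM in 14e, 279.8 CPM in 14g, 150.5 CPM in 14c and 93.93 CPM in 14h, and the ratio against 14d only was still past 2-fold. Fibroblast-like cells had 1042 CPM (titled positive) and 582.4 CPM (titled control) (0.84), but 4733 CPM (titled positive) and 2267 CPM (titled control) in cluster 19 and 1420 CPM (titled positive) and 256.1 CPM (titled control) in cluster 20, with 109.5 CPM in the titled positive cluster 16. Over clusters 19 and 20 alone the ratio was 2.43. Hps3 overlaps Cp on the opposite strand, and the strand setting of the counting is not given in the sources used here.

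Hmox1 (chr8:75093621-75100589, plus strand), which breaks haem down into iron, biliverdin and carbon monoxide, was highest, at 318.9 CPM (221 to 446), in the 21 titled positive astrocyte-like cells, of which only 19% had a UMI, against 19.39 CPM in titled control astrocyte-like cells. The myeloid classes followed. Monocyte or macrophage-like cells had 133.9 CPM in the titled positive and 125.2 CPM in the titled control library (0.09; -0.10 to 0.30), and microglia-like cells 180.7 CPM (titled positive) and 64.56 CPM (titled control) (1.49; 1.19 to 1.77). The microglia-like ratio was -0.15 with cells named singly from their own markers. In the titled positive sub-clusters 10a to 10d, which matched more than 1 class, Hmox1 was at 59.63 to 89.54 CPM. Fibroblast-like cells had 100.2 CPM (titled positive) and 22.99 CPM (titled control) (2.08; 1.22 to 3.15), and oligodendrocyte-like cells 22.52 CPM (titled positive) and 9.772 CPM (titled control) (1.21; 0.85 to 1.55). Carcinoma cell-like cells had 14.32 CPM.

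Slc11a1 (chr1:74375195-74386062, plus strand), the metal transporter of the phagosome, was found mostly in microglia-like and monocyte or macrophage-like cells. Microglia-like cells had 327 CPM in the titled positive and 227.4 CPM in the titled control library (0.53; 0.32 to 0.72). Monocyte or macrophage-like cells had 129.7 CPM (titled positive) and 233.9 CPM (titled control) (-0.85). Neither was past 2-fold, and the 2 ratios had opposite signs. Titled positive neutrophil-like cells held 33.93 CPM, and dendritic cell-like cells 4.735 CPM (titled positive) and 26.7 CPM (titled control). Smooth muscle cell-like (43.3 CPM) and neuron-like cells (28.29 CPM) of the titled control library were not below these. Carcinoma cell-like cells had 4.788 CPM.

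The genes most like each member were ranked by the Pearson correlation of log2(CPM + 1) over 21 pairs of class and library with at least 50 cells, among 13899 genes. These pairs share 2 libraries and their free RNA, so the values only describe the pattern. They leave out titled positive ependymal-like (38 cells) and titled control neutrophil-like cells (10 cells), the classes with the highest Lcn2 in each library. Trf was most like Mag, a myelin gene (0.919), Slc11a1 was most like the complement genes C1qc, C1qa and C1qb (0.921, 0.920 and 0.919), and Ftl1 was most like the lysosomal genes Mfsd1 (0.914), Gusb and Grn (0.875). Lcn2 was most like Arhgap8 (0.943), Gbp6 (0.894), Ccbe1 (0.875), C77080 (0.861) and Urah (0.857), of which all but Gbp6 were highest in carcinoma cell-like cells. For Tfrc they were Far2, Shroom4 and Srarp (0.877, 0.805 and 0.803), all highest in titled control endothelial-like cells, and for Slc40a1 they were Tal1, Arap3 and Bmx (0.831, 0.821 and 0.806). Slc22a17 was most like Wdr7 (0.921), Saraf and Ank2 (0.898), Cp like Wwtr1, Serpinb6a and Ecm1 (0.832, 0.829 and 0.829) and Hmox1 like Eaf1, Fmn1 and Tmem241 (0.790, 0.785 and 0.765). The first 3 for Fth1 were Card19, Slc25a13 (0.692) and Psmc3 (0.667).

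Other genes of iron metabolism were taken from 5 lists of 42 genes, of which 40 were in the files. In oligodendrocyte-like cells 4 of the 26 compared were higher past 2-fold in the titled positive library and 3 lower, where 11.6% of all genes compared were higher and 15.9% lower, and the median was 0.11 against -0.23 over all genes compared. Those counts are near the shares over all genes. Higher were Slc39a14, a zinc and iron importer (77.83 CPM titled positive, 2.35 CPM titled control; 5.04), Steap2, a metal reductase (9.589 CPM titled positive, 0.5773 CPM titled control; 4.02), Hfe, a partner of the transferrin receptor (2.52), and Hp, which binds free haemoglobin (5.47). Lower were Slc48a1, a haem transporter of endolysosomes (322.2 CPM titled positive, 1043 CPM titled control; -1.69), Ncoa4, the receptor that sends ferritin to autophagy (-1.11), and Fbxl5, the iron-sensing ligase subunit that removes an iron regulatory protein (62.44 CPM titled positive, 128.5 CPM titled control; -1.04). The higher genes were also present in the carcinoma cell-like or neutrophil-like cells: Steap2 had 72.49 CPM and Slc39a14 26.81 CPM in carcinoma cell-like cells, and Hp 1204 CPM in titled positive neutrophil-like cells. Slc39a14 in oligodendrocyte-like cells was thus above its carcinoma cell-like level.

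In monocyte or macrophage-like cells 2 of 29 were higher and 6 lower, near the 9.41% higher and 16% lower of all genes, with a median of -0.16 against -0.24 over all genes compared. Of the uptake and reduction genes compared, 5 of 6 were lower: Slc39a8 (-1.95), Slc11a2, the divalent metal transporter (-1.81), Slc39a14 (-1.46), Steap3 (-1.24) and Hfe (-1.12). Cd163, the receptor for haptoglobin-bound haemoglobin, was lower as well (8.368 CPM titled positive, 35.14 CPM titled control; -2.08). Hp was higher (359.3 CPM titled positive, 115.8 CPM titled control; 1.63), and Steap2 had 106 UMIs in the titled positive library, against 0 in the titled control library, at least 4.64-fold higher against a floor of 3 counts. Beside this, Steap2 was at 7.647 CPM in titled positive monocyte or macrophage-like cells and 72.49 CPM in carcinoma cell-like cells, and the summed carcinoma markers at 893 CPM in these monocyte or macrophage-like and 8039 CPM in carcinoma cell-like cells. Their part in the Steap2 value was not tested.

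In microglia-like cells 5 of 25 were higher and 3 lower, beside 7.19% higher and 28.3% lower of all genes, with a median of 0.10 against -0.43 over all genes compared. The biliverdin reductases Blvra (124.8 CPM titled positive, 52.17 CPM titled control; 1.26) and Blvrb (176.4 CPM titled positive, 71.81 CPM titled control; 1.30), which act after haem oxygenase, were among the higher, with Slc39a14 (2.08) and the iron-sulphur cluster gene Nfs1 (1.04). Slc25a37, the mitochondrial iron importer (-1.86), and Hfe (-1.38) were among the lower. Slc39a14 was therefore higher in microglia-like and oligodendrocyte-like cells and lower in monocyte or macrophage-like cells, a difference between classes that was not tested.

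The other classes had fewer such genes. In endothelial-like cells 1 of 23 was higher (Hp, 4.31) and 1 lower (Steap3, -1.20), beside 5.45% higher and 13.3% lower of all genes, with a median of 0.05 against -0.21 over all genes compared. There Hp was at 61.35 CPM (titled positive) and 2.936 CPM (titled control). Neutrophil marker sums were 7627 CPM (titled positive) and 36.7 CPM (titled control). Titled positive neutrophil-like cells had 1204 CPM of Hp and 180235 CPM of these markers. The part of neutrophil RNA in the endothelial Hp ratio was not tested. In fibroblast-like cells 3 of 15 were higher (Steap2 2.92, Slc39a14 2.30, Alas1 1.13) and 3 lower (Hmox2 -1.95, Steap3 -1.43, Bmp6 -1.43), beside 14.4% higher and 17.3% lower of all genes, with a median of -0.42 against -0.12. T cell-like cells had 1 of 11 higher (Hp 3.95, on 63 UMIs (titled positive) and 1 UMI (titled control)) and 1 lower (Slc48a1 -1.59), beside 9.58% higher and 6.58% lower of all genes, with a median of 0.08 against 0.03. Dendritic cell-like cells had 0 of 7 past 2-fold, beside 14.3% higher and 6.39% lower of all genes, with a median of 0.11 against 0.22. The hormone genes Hamp and Hamp2 had too few UMIs to be compared in any class.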

How the data were processed

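Raw UMI counts of genes by barcodes were deposited, and these counts were used unchanged. The submitters' processing notes name Cell Ranger and the genome build GRCm38, and per the labels' protocols cells were captured with the Singleron GEXSCOPE kit. Version, annotation release, cell calling and strand setting remain not given in the sources used here. All members, marker lists and iron lists were chosen with earlier results of these data known.

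A minimum of 200 genes and a maximum of 20% mitochondrial UMIs per barcode left out 5 titled positive and 11 titled control barcodes. Doublets called per library by Scrublet in scanpy 1.11.5 were removed, 300 (2.77%) titled positive and 600 (5.77%) titled control. Leiden clustering (resolution 1, igraph 0.11.9) used 30 principal components of 1990 variable genes, without members and iron lists, and 15 neighbours; clusters matching more than 1 class were clustered again at resolution 0.5, giving 58 clusters and sub-clusters, sub-clusters lettered within their cluster. Names came from markers of 23 cell types, needing a mean log2 marker ratio of 1.5 and 3 markers, and the thresholds for mixed clusters were set after the clusters were seen. Mixed clusters held 633 titled positive and 285 titled control cells, and unnamed ones 80 titled positive and 27 titled control cells. Rebuilt names may differ from the submitters'.

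UMIs were summed per class and library with Python 3.11.15, numpy 2.4.6 and scipy 1.17.1. CPM carries exact Poisson 95% intervals, shares exact Clopper-Pearson 95% intervals, and log2 ratios conditional exact binomial 95% intervals with a pseudocount of 0.5 counts; all cover counting error only, and a count of 0 was set against a floor of 3 counts. Only the ratios and their intervals were tested on simulated data, drawn with counting error alone. Clustering, naming, thinning and free RNA subtraction were not. No test between groups was possible with 1 library each. Genes named were the 10 members, the 3 genes most like each (5 for Lcn2), and iron-list genes past 2-fold, some of which are not reported here; cluster leading genes, Ltf, Ftl1-ps1 and overlapping genes are named as description. Coordinates came from GENCODE M21, which held 29170 of 29217 gene identifiers; protein sequences were not used here. Alternatives varied the averaging, pseudocount, doublets, clustering, naming, depth, free RNA and scaling.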

Additional observations from a re-analysis of the deposited data

Results flagged for a closer look

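Ceruloplasmin (Cp) was flagged because its ratio between the libraries had opposite signs in different cell classes. The log2 ratio of titled positive over titled control CPM was 3.61 in oligodendrocyte-like, 2.97 in T cell-like, 2.59 in microglia-like and 1.97 in endothelial-like cells, and -2.19 in monocyte or macrophage-like cells. The opposite sign was lost with cells named singly from their own markers (0.66 in monocyte or macrophage-like cells), and the microglia-like ratio was 0.68 at clustering resolution 2. With 1 library in each group the difference between classes was not tested.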

How the results depend on the processing

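Over 56 member ratios and up to 12 alternatives each, 436 of 591 alternative values stayed near the reported one, 150 moved and 5 changed sign from a ratio past 2-fold. Sign changes were Lcn2 in T cell-like (-1.39) and dendritic cell-like cells (-0.42) with estimated free RNA subtracted, Slc40a1 in oligodendrocyte-like cells (0.96) with free RNA of 5% subtracted, and Hmox1 in microglia-like (-0.15) and Cp in monocyte or macrophage-like cells (0.66) with cells named singly from their markers. The cause was not tested, apart from the subtraction itself.

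Lcn2 in carcinoma cell-like cells was 2731 CPM as a mean over cells and 2495 CPM with cells named singly; in titled positive neutrophil-like cells these gave 12916 and 6608 CPM. Ependymal-like cells had 15621 CPM in the titled positive library without shared barcodes, and in the titled control library 916.1 CPM as a mean over cells and 1070 CPM with doublets kept.

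Counts of members past 2-fold also moved. Lower in oligodendrocyte-like cells was 1, against 0 with a pseudocount of 5 or with 5% subtracted and 2 with doublets kept. Higher in endothelial-like cells was 3, against 1 with titled control sub-cluster 14d only, and lower in fibroblast-like cells 2, against 1 in clusters 19 and 20. Higher in microglia-like cells was 4, against 1 at resolution 2. In monocyte or macrophage-like cells 1 was higher, against 2 as a mean over cells, with own markers and after thinning, and 4 lower, against 2 with own markers. With estimated free RNA subtracted, 0 were higher in dendritic cell-like and 1 in T cell-like cells (against 1 and 2); in T cell-like cells 1 was lower (against 0), as at resolution 2 and with own markers.

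Leaving out shared barcodes, the whole of cluster 10, sub-cluster 14d, clusters 19 and 20, and the 5 endothelial-like cells rich in neutrophil markers were chosen after seeing the data. Keeping only cells with no carcinoma or neutrophil marker UMI gave no value, since fewer than 20 such titled positive cells were left in each class. No paired analysis was possible because each group has 1 library. Genes of a few UMIs per class, such as Slc40a1 in the titled positive library, are limited by depth, and their intervals leave out the variation between animals.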
